A study of Mus musculus with 4 samples.

Results

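Transcripts of the receptor, kinase and Stat3 arm of leukemia inhibitory factor (LIF) signalling were followed through 9 genes: the ligand Lif, the receptor chains Lifr, Il6st and Osmr, the kinases Jak1 and Jak2, the transcription factor Stat3, and the response genes Socs3 and Junb. Members were all probes of the array whose gene name in the scanner files was one of these 9, which gave 17 of 41174 gene probes and 26 spots. They covered 8 of the 9 genes among 27745 gene names. No probe carried the name Lif, and Lif itself is not analysed here under that name. Of the 17 probes, 16 were tested and 1 of the 2 Stat3 probes was too dim to be tested.

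LIF is a secreted cytokine that binds Lifr, and the complex then takes in Il6st (gp130), the signalling chain shared by the interleukin-6 (IL-6) family. Janus kinases bound to these chains phosphorylate Stat3, which moves to the nucleus and turns on genes that include its own brake, Socs3. Mouse embryonic stem (ES) cells are commonly grown with LIF because Stat3 activity helps them stay pluripotent, whereas fibroblasts use the same chains to answer other cytokines of the family, among them oncostatin M through Osmr.

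RNA from 3 kinds of mouse cells was compared on 4 whole-genome Agilent oligonucleotide arrays with 2 colours, using 1 µg of each RNA. The green dye (Cy3) always carried RNA of the ES cell line CGR8.8, grown with LIF at 1000 IU/ml. The red dye (Cy5) carried RNA of mouse embryonic fibroblasts (MEFs) taken after several passages on 2 arrays, and RNA of a clone of induced pluripotent stem (iPS) cells on the other 2. The iPS clone was grown with the same 1000 IU/ml of LIF and harvested 30 days after transduction. The labels do not name the transduced factors, the strain, or whether MEFs received LIF, and the iPS cells are 1 clone. They call the 2 arrays of a group biological replicates without saying that cultures were separate, so the p-values reflect no more than how these samples scatter, and that scatter may be technical. No dyes were swapped, and all 4 arrays lay on 1 slide scanned at 1 time, so in comparisons with ES cells the dye cannot be told apart from cell type. MEF and iPS RNA carried the same dye, and array position cannot be told apart from group between them.

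Each value is the log2 ratio of red over green, and positive values mean more signal than in ES cells. A probe was called higher or lower where limma's moderated test gave a Benjamini-Hochberg adjusted p under 0.05 over all 24874 tested probes and the ratio was at least 2-fold. In a channel, 60.9% to 63.2% of gene probes read well above background. Over tested probes, ratios of replicate arrays correlated at 0.989 for MEFs and 0.992 for iPS cells. The number of arrays limits the precision.

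The labelled cell types were set against marker lists. All 5 ES cell markers (Pou5f1, Nanog, Sox2, Zfp42 and Esrrb) were called lower in MEFs than in ES cells, and in iPS cells 3 were higher than in ES cells and 1, Pou5f1, was lower (-1.35). All 6 fibroblast markers were called higher in MEFs, and all 6 were above background in ES cells too. The summed normalised signal of those 6 ran from 458000 to 466000 in MEFs, from 20200 to 30900 in ES cells and from 1650 to 1700 in iPS cells, where 4 of 6 were above background. Of 7 macrophage markers, 3 were called higher and 1 lower in MEFs than in ES cells, and 2 were lower in iPS cells; their summed signal was 7740 to 8220 in MEFs, 1540 to 1590 in ES cells and 1010 to 1040 in iPS cells. Of 4 tested endothelial markers, 1 was higher and 1 lower in MEFs, and 2 were higher and 1 lower in iPS cells.

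In MEFs, 6 of 16 member probes (4 of 8 genes by their brightest probe) were called higher than in ES cells and 0 lower, beside 12.8% of all tested probes called higher and 12.4% called lower (13.8% and 13.6% of genes). The 4 genes were Osmr, Stat3, Il6st and Jak1. The dimmer Osmr probe is counted among these 6 probes, and among the 9 below for iPS cells over MEFs. It passed the filter through MEFs alone, so its calls follow in part from the filter. In iPS cells, 1 member probe was called higher, of Lifr, and 4 were called lower, of Junb, Jak2 and Osmr, beside 8% and 10.7% of all probes (9.08% and 11.8% of genes). Between the groups of red RNA, 9 member probes of 6 genes were called lower in iPS cells than in MEFs and 0 higher, beside 17.7% lower and 15.4% higher among all probes (18.8% and 17% of genes). In limma at an unadjusted p under 0.05, with no fold threshold, 4 member probes were lower in MEFs than in ES cells and 5 were higher in iPS cells than in MEFs. Among all 24874 tested probes these counts were 10600 and 10135. The median over tested member probes was 0.48 in MEFs over ES, 0.23 in iPS over ES and -1.56 in iPS over MEFs, against -0.012, -0.010 and 0.012 over all tested probes. The iPS over MEF values are the differences of the other sets and share their ES signals.

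**Figure D1:**
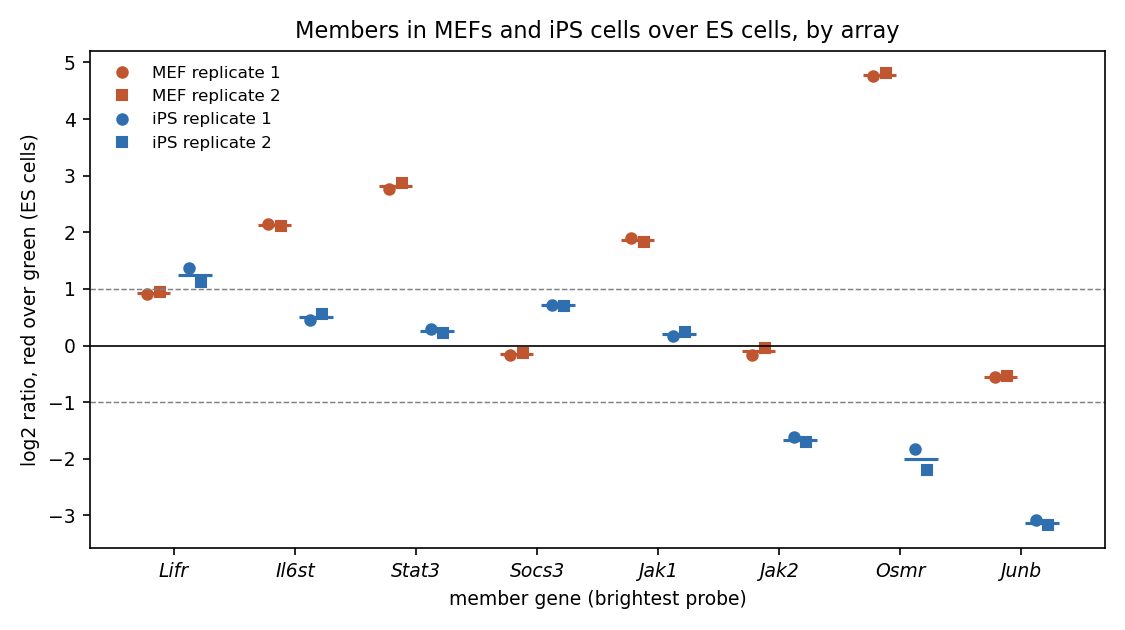
Log2 ratio of red RNA over ES cell RNA (vertical axis) for the brightest probe of each of the 8 member genes (horizontal axis), with a point per array, a bar at each group's mean, and dashed lines at 2-fold. Osmr, Stat3, Il6st and Jak1 stand above 2-fold in both MEF arrays. In both iPS arrays Lifr stands above 2-fold, and Junb, Osmr and Jak2 stand more than 2-fold below ES cells. The small MEF values of Socs3, Jak2 and Junb turned positive with median centring.

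Most member calls that involve MEFs, and some in iPS cells over ES, did not hold under another fit of the background. That alternative fitted the background model over all spots. On the array of MEF replicate 1 these include 14 that the scanner software marked as outliers, with local background above 500 and up to 694663. No spot of the other arrays exceeded 500. In that fit no member probe was called in MEFs over ES by limma, and 3 were higher and 2 lower at an unadjusted p under 0.05. Of 24874 probes, 0 were then called in that comparison, with 1311 higher and 1078 lower at an unadjusted p under 0.05. In iPS over MEFs, the calls of Il6st (-0.74, adjusted p = 0.482), Stat3 (-1.85, adjusted p = 0.136), Jak1 (-1.08, adjusted p = 0.19) and Osmr (-4.84, adjusted p = 0.128) were lost under that setting. In iPS over ES, so were those of Lifr (1.24, adjusted p = 0.0536) and Osmr (-1.99, adjusted p = 0.246). These 2 ratios hardly moved from 1.25 and -2.01, but their standard errors rose from 0.0665 to 0.27 and from 0.0854 to 1.05. The fit shares 1 estimate of the spread between MEF and iPS arrays.

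No member probe measures the ligand. The array carried a cDNA probe named AK019683, at chr11:4174323-4174382 of the mm8 build, plus strand, which the scanner files describe as encoding LIF. It lies outside the rule for members and was chosen after its values were seen. Its log2 ratio was -1.45 and -1.66 in the 2 MEF arrays and 0.15 and 0.21 in the 2 iPS arrays. All RNAs were above background, and the MEF arrays lay well below the iPS arrays. The signal was 2.94-fold lower in MEFs than in ES cells (-1.56 ± 0.0627 on the log2 scale, SE, n = 2, limma adjusted p = 3.32e-07). The iPS value of 0.18 ± 0.0627 was not called, and iPS cells were 3.33-fold above MEFs (limma adjusted p = 1.34e-06).

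Lifr, the chain that binds LIF, was called higher in iPS cells than in ES cells, on 1 of its 4 probes. The 4 probes are shown because they differ in size of response although all lie on the strand of the gene. The brightest, A_52_P579352, matches 60 bases that spread over 807 bases of genome (chr15:7131976-7132782, mm8) and so crosses an exon junction. A_52_P192699 lies at chr15:7132889-7132948, A_52_P297113 at chr15:7138274-7138333 and A_51_P113182 at chr15:7138365-7138424; no annotation of that build was used, so exon and UTR positions are not given. Sequences are those of the array files, and only the first 30 bases of the last are printed.
Lifr A_52_P579352: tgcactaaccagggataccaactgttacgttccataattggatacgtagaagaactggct
Lifr A_52_P192699: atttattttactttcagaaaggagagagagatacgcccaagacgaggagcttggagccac
Lifr A_52_P297113: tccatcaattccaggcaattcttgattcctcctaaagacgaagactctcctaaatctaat
Lifr A_51_P113182: agaacaaaccaaatgactaaccaggtcacc

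On the brightest Lifr probe, the log2 ratio was 0.90 and 0.94 in MEFs and 1.37 and 1.12 in iPS cells. Both iPS arrays were above both MEF arrays, and all 4 were above ES cells. The iPS value was 2.37-fold (1.25 ± 0.0665, SE, n = 2, adjusted p = 1.93e-06), and the MEF value of 1.90-fold (0.92 ± 0.0665, adjusted p = 7.59e-06) fell short of 2-fold. The difference of 0.32 ± 0.094 between iPS cells and MEFs had an adjusted p of 0.0151 and was not called.

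The other 3 Lifr probes gave smaller values, again with iPS cells above MEFs. MEFs over ES stood at 0.20 on A_51_P113182 (limma adjusted p = 0.0358), -0.046 on A_52_P297113 (0.68) and -0.083 on A_52_P192699 (0.379). For A_51_P113182 the arrays read 0.068 and 0.33 in MEFs and 0.82 and 0.69 in iPS cells. For A_52_P297113 they read -0.25 and 0.15 in MEFs and 0.74 and 0.52 in iPS cells. For A_52_P192699, which was above background on 1 of 2 MEF arrays, they read 0.098 and -0.26 in MEFs and 0.31 and 0.29 in iPS cells. The probes share a target, so they are not separate evidence. Of all 24874 tested probes, 10135 were higher in iPS cells than in MEFs at an unadjusted p under 0.05 in limma. The iPS over ES values of 0.75, 0.63 and 0.30 had adjusted p-values of 4.69e-05, 0.000699 and 0.0124 without reaching 2-fold. With the mean over its probes, Lifr stood at 0.73 in iPS cells and was no longer called. With the scanner software's log ratio its brightest probe stood at 1.67 in MEFs and 2.17 in iPS cells over ES, so the size depends on the processing. Lifr signals were low in all 3 RNAs, with mean normalised log2 signals of 6.86 in ES cells, 7.77 in MEFs and 8.12 in iPS cells on the brightest probe.

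Il6st, the shared signalling chain, was higher in MEFs. Its only probe lies at chr13:113627256-113627315 (mm8, plus strand). The log2 ratio was 2.15 and 2.11 in MEFs and 0.46 and 0.57 in iPS cells. The groups did not overlap, and all 4 arrays were above ES cells. MEFs carried 4.38-fold more signal than ES cells (2.13 ± 0.0506, SE, n = 2, adjusted p = 2.76e-08). iPS cells stood at 1.43-fold over ES cells (0.51 ± 0.0506, adjusted p = 5.71e-05), which was not called, and were 3.07-fold below MEFs (adjusted p = 6.24e-07). In RNA of whole cultures, fewer cells that express a gene and less RNA per cell cannot be told apart, here and for each gene below.

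Osmr, the chain that pairs with Il6st to bind oncostatin M, gave the widest range of any member. The brighter of its 2 probes is A_51_P319460, at chr15:6760901-6760960 (mm8, minus strand), and the dimmer is A_52_P495729, at chr15:6762258-6762317. Their first 30 bases are printed to identify the probes behind this range.
Osmr A_51_P319460: attgcagatgctctgtttacattttcttgt
Osmr A_52_P495729: ttattgcagtagcttgacatagggtgtaca

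The mean red intensity of the brighter probe before any correction was 12400 and 10500 in MEFs and 60.3 and 58.8 in iPS cells, where the local background was 49 and 55. The green intensity of ES cells was 226, 229, 167 and 196 on the 4 arrays, over local backgrounds of 14 to 18. Log2 ratios were 4.76 and 4.81 in MEFs and -1.82 and -2.19 in iPS cells. MEF arrays were far above ES cells and iPS arrays below them, with no array between.

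On that probe MEFs were 27.5-fold above ES cells (4.78 ± 0.0854, SE, n = 2, adjusted p = 8.90e-09). The probe was not well above background on either iPS array, so the iPS signal has only an upper limit. Osmr was lower in iPS cells by a fitted 4.02-fold than in ES cells (limma adjusted p = 6.02e-07) and by a fitted 111-fold than in MEFs (adjusted p = 1.09e-08). Bounds set the brighter group's mean against the lowest signal among bright probes, or the probe's own where higher. They use channel signals that are open to dye bias. Here they gave 4.08-fold and 123-fold, above the fitted ratios, so they are not strict lower limits. Adjusted p-values given with bounds belong to the fitted ratios. The dimmer probe was above background in MEFs only. It read 1.61 and 1.44 in MEFs and 0.073 and -0.14 in iPS cells. Its bounds, again not strict limits, put MEFs 2.87-fold above ES cells (limma adjusted p = 5.6e-07) and iPS cells 2.93-fold below MEFs (adjusted p = 3.76e-06). This probe passed the filter through MEFs alone, where it is high. Its calls therefore follow in part from the filter and are no further support for Osmr. Summed fibroblast marker signal moved the same way, at 458000 to 466000 in MEFs, 20200 to 30900 in ES cells and 1650 to 1700 in iPS cells, and its part in the Osmr result was not tested.

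**Figure D2:**
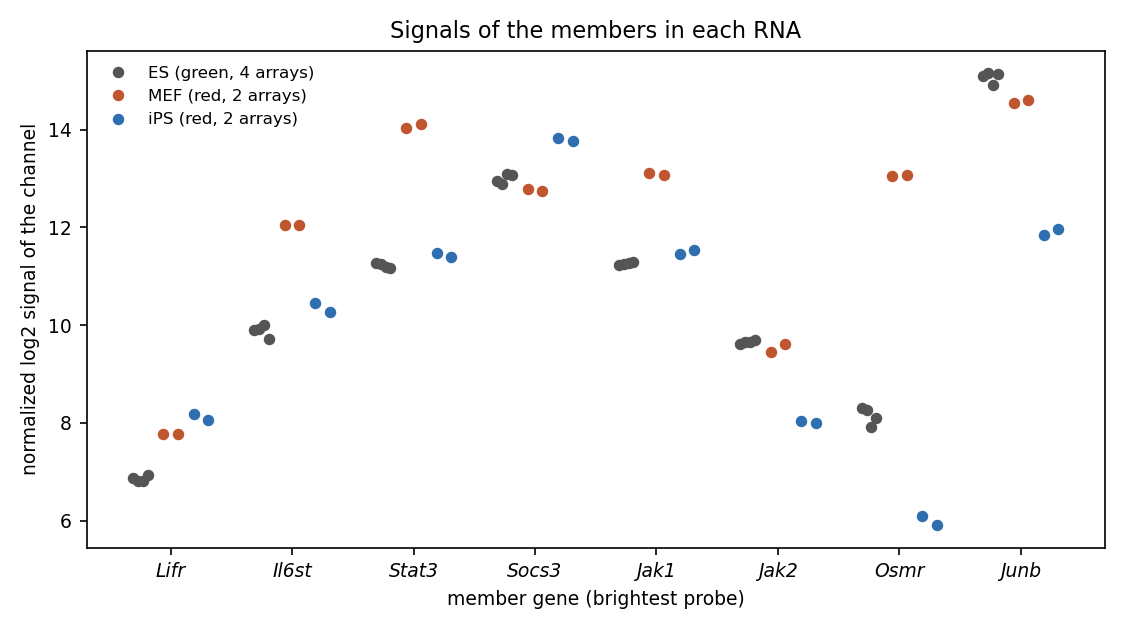
Normalised log2 signal (vertical axis) of the brightest probe of each member (horizontal axis) in ES cells (4 green channels), MEFs (2 red channels) and iPS cells (2 red channels); points are arrays, and heights are comparable within a gene only. Osmr runs from 5.91 and 6.10 in iPS cells to 13.05 and 13.07 in MEFs, and the ES signals of each gene lie close together.

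Jak1, a kinase bound to Il6st, was higher in MEFs on 2 of its 3 probes. The brightest, A_52_P106463 (chr4:100650421-100650480, mm8, minus strand), read 1.89 and 1.83 in MEFs and 0.17 and 0.24 in iPS cells. A_51_P256642 (chr4:100651121-100651180) read 1.90 and 1.94 in MEFs and 0.29 and 0.23 in iPS cells. The probes gave nearly the same values, and the groups did not overlap on either. MEFs were 3.63-fold above ES cells on the brightest probe (1.86 ± 0.0491, SE, n = 2, adjusted p = 4.35e-08) and iPS cells 3.15-fold below MEFs (adjusted p = 4.72e-07). The iPS over ES value of 0.20 ± 0.0491 (adjusted p = 0.00652) was far under 2-fold.

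The third Jak1 probe is printed whole because it lies on the plus strand, opposite to the gene (chr4:100654397-100654456, mm8), and carries the accession AK029232 in the array files.
Jak1 A_52_P577180: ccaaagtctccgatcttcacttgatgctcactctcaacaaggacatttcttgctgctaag
It gave 0.77 ± 0.0642 in MEFs (adjusted p = 1.80e-05) and 0.18 in iPS cells, and neither was called. Its signal in ES cells was low, with a mean log2 signal of 6.40, and it is not a measure of the Jak1 transcript on the gene's own strand.

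Jak2, the other kinase, was lower in iPS cells on 1 of its 2 probes. On A_51_P483231 (chr19:29377868-29377927, mm8, plus strand) the log2 ratio was -0.16 and -0.049 in MEFs and -1.62 and -1.71 in iPS cells. Both iPS arrays lay far below both MEF arrays. iPS cells were 3.17-fold below ES cells (-1.66 ± 0.0531, SE, n = 2, adjusted p = 1.45e-07) and 2.95-fold below MEFs (adjusted p = 9.85e-07). The MEF value of -0.10 ± 0.0531 had an adjusted p of 0.106, and with median centring it was 0.18. The second probe, A_52_P309376 (chr19:29354718-29354777), was near background: it was above it in ES cells on 4 of 4 arrays, in MEFs on 0 of 2 and in iPS cells on 1 of 2. It gave -0.19 in MEFs and -0.24 in iPS cells, and with the mean over both probes Jak2 stood at -0.95 in iPS cells and was not called.

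Stat3, the factor that carries the LIF signal to the nucleus, was higher in MEFs. Its probes are shown by their first 30 bases because they lie 3076 bases apart on chromosome 11 and gave different readings.
Stat3 A_51_P201480: cactctgtgagctgataccccaggctggga
Stat3 A_52_P569499: atccatcacacagcccagtaaaccaggaag
The first lies at chr11:100704374-100704433 and the second at chr11:100701238-100701297 (mm8, minus strand).

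The first Stat3 probe was printed 10 times on the array, which gives a spread within arrays. Log2 ratios averaged 2.76 (SD 0.0381 over 8 unmarked spots) and 2.87 (SD 0.0306 over 10 spots) in MEFs, and 0.29 (SD 0.0232 over 10 spots) and 0.23 (SD 0.0286 over 10 spots) in iPS cells. The lowest MEF spot, at 2.71, was far above the highest iPS spot, at 0.34. MEFs were 7.03-fold above ES cells (2.81 ± 0.0518, SE, n = 2, adjusted p = 9.86e-09) and iPS cells 5.88-fold below MEFs (-2.56 ± 0.0732, adjusted p = 7.32e-08). In iPS cells Stat3 was 1.20-fold above ES cells (0.26 ± 0.0518, adjusted p = 0.00265), which was not called. The second probe was above background on 1 of 4 ES arrays and on no MEF or iPS array, was not tested, and read between -0.28 and 0.068.

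Socs3 and Junb are genes that Stat3 and growth signals switch on quickly. Their promoters are shown because Socs3 is the brake of the pathway and Junb was the member with the largest called fall in iPS cells among brightest probes above background. The 250 bases before each start site are from RefSeq (GRCm38.p6), read on the minus strand, at chr11:117969367-117969616 for Socs3 and chr8:84978749-84978998 for Junb. Capitals mark the palindrome TTCNNNGAA, the core of the site that Stat factors bind; being its own complement, it reads the same on both strands.
Socs3 promoter: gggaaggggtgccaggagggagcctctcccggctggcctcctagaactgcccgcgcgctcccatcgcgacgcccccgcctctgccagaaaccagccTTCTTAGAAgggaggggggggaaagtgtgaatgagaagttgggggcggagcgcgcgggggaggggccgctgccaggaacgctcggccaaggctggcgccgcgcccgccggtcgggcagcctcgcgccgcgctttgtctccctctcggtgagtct
Junb promoter: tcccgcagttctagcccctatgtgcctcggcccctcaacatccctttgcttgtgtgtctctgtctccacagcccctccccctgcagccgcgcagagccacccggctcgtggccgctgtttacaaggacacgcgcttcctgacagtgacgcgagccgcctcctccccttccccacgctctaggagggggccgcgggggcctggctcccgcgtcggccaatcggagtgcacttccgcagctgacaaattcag
Over windows of 300 bases, 250 before and 50 after the start, the motif was found in 1 of 10 windows of the 9 genes, that of Socs3, starting at -154. It was found in 2726 of all 32851 windows (8.3%). A match is a description of letters, not of binding.

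Socs3, the inhibitor that blocks Jak kinases at Il6st, read -0.16 and -0.14 in MEFs and 0.72 and 0.69 in iPS cells on its only probe (chr11:117782256-117782315, mm8, minus strand). Both iPS arrays stood above ES cells and both MEF arrays slightly below. The iPS value was 1.63-fold (0.71 ± 0.0463, SE, n = 2, adjusted p = 5.72e-06) and was not called because it did not reach 2-fold; with median centring it was 1.26 and was called. iPS cells stood 1.81-fold above MEFs (0.86 ± 0.0654, adjusted p = 1.21e-05), also short of 2-fold. The MEF value was -0.15 ± 0.0463 (adjusted p = 0.0194), and 0.40 with median centring.

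Junb, a subunit of the AP-1 transcription factor and an early response gene of LIF, was lower in iPS cells on both probes. The probes overlap on chromosome 8, at chr8:87867087-87867146 and chr8:87867049-87867108 (mm8, minus strand), and share the 22 bases below, so they are not independent measurements.
Junb shared bases: ttcgtgtctaaagtctatttta
On the brighter probe, A_51_P159201, the log2 ratio was -0.56 and -0.54 in MEFs and -3.08 and -3.17 in iPS cells. The iPS arrays lay far below the MEF arrays, and all 4 lay below ES cells. iPS cells were 8.73-fold below ES cells (-3.13 ± 0.0493, SE, n = 2, adjusted p = 7.98e-09) and 5.96-fold below MEFs (-2.58 ± 0.0697, adjusted p = 5.66e-08). MEFs stood at -0.55 ± 0.0493 (adjusted p = 2.66e-05), which was not called and was 0.22 with median centring. The dimmer probe, A_51_P159194, gave -0.46 in MEFs and -2.62 ± 0.0485 in iPS cells, a 6.14-fold difference from ES cells.

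**Figure D3:**
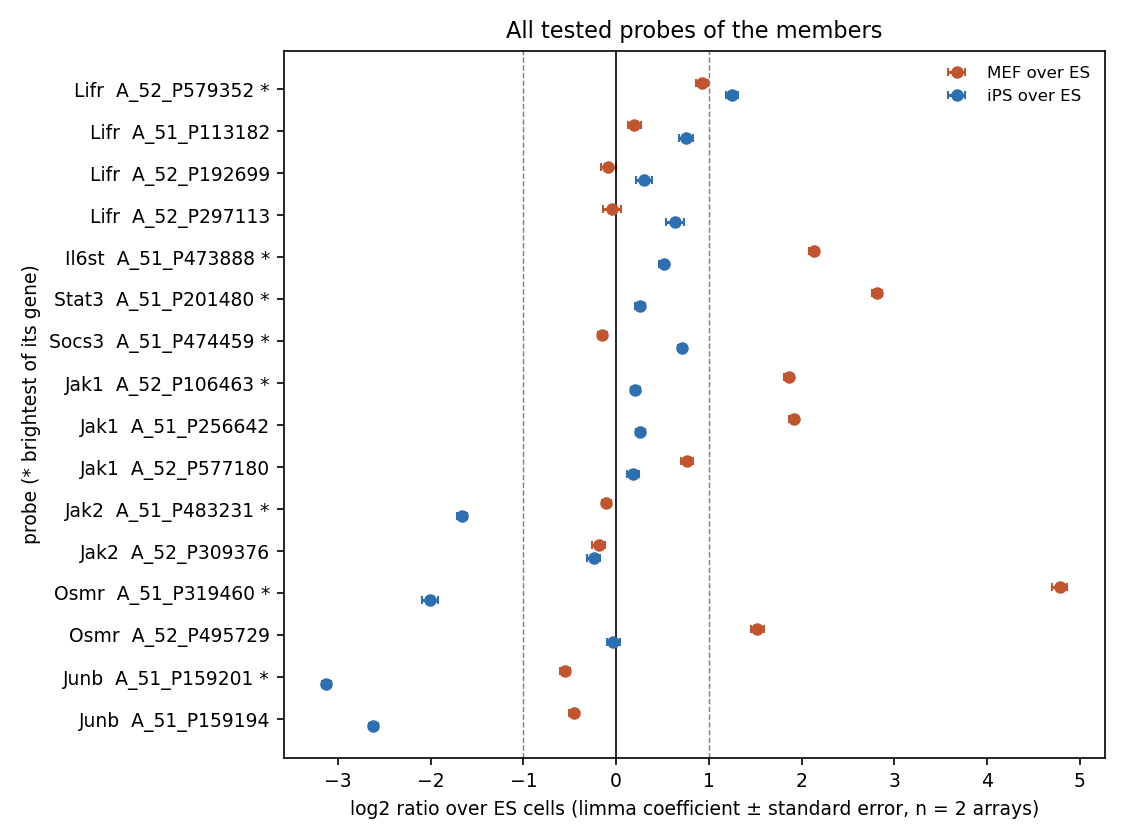
Limma log2 ratio over ES cells with its standard error (horizontal axis, n = 2 arrays) for each of the 16 tested member probes (vertical axis), with MEFs in orange and iPS cells in blue and dashed lines at 2-fold. The 4 Lifr probes spread from -0.083 to 0.92 in MEFs and from 0.30 to 1.25 in iPS cells, and the probes of Jak2 and Osmr also differ; Socs3, Jak2 and Junb changed sign in MEFs with median centring.

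For Lifr, Il6st and Stat3, the genes with the most similar values were sought over the 4 arrays, as the smallest Euclidean distance between log2 ratios of brightest probes among 17620 tested genes. Lifr was nearest to Grasp (distance 0.131), Rarres2 (0.173) and Pgp (0.181). Il6st was nearest to Ero1a (0.0416), Grk5 (0.124) and Dnm1 (0.15), with Ero1a at 2.15 in MEFs and 0.50 in iPS cells. Stat3 was nearest to Mgll (0.14), Otud7a (0.18) and Cdc42ep2 (0.234), with Mgll at 2.78 in MEFs and 0.20 in iPS cells. With 4 arrays in 2 groups, such likeness describes little more than a pair of group means.

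Beyond the members, 68 genes of the same signalling family were read from 6 lists. All 68 had a probe and 63 were tested. In MEFs over ES, 13 were called higher, 10 lower and 40 not called, with a median of 0.092, beside 13.8% of all tested genes called higher and 13.6% lower (median -0.013). In iPS over ES, 7 were higher, 17 lower and 39 not called (median 0.035), beside 9.08% and 11.8% of all genes (median 0.0066). In iPS over MEFs, 17 were higher, 22 lower and 24 not called (median -0.047), beside 17% and 18.8% of all genes (median 0.028). The called counts of each list below stand against the same shares. Counts at an unadjusted p under 0.05 in limma stand against those of all 24874 tested probes. Of these, 10149 were higher and 10600 lower in MEFs over ES, 9635 and 10114 in iPS over ES, and 10135 and 10004 in iPS over MEFs. With median centring the split was 18 higher and 6 lower in MEFs over ES, and 11 higher and 12 lower in iPS over ES. Genes are named here from the largest called values of each list.

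Of 9 tested IL-6 family cytokines, 4 were higher in MEFs than in ES cells and 0 lower (1 lower at an unadjusted p under 0.05 in limma). In iPS cells 4 were lower than in ES cells and 0 higher (2 higher at an unadjusted p under 0.05). Il6 was not above background in ES or iPS cells and passed the filter through MEFs alone. Its bound, not a strict limit, put it 9.72-fold higher in MEFs than in ES cells (limma adjusted p = 4.46e-09). Its calls, counted here for MEFs over ES and below for iPS over MEFs, follow in part from the filter and are no separate support. Il11, another ligand that signals through Il6st, was at 2.08 ± 0.0458 in MEFs and -2.54 ± 0.0458 in iPS cells (SE, n = 2). Ctf1 (cardiotrophin) was lower in iPS cells, at -1.64 ± 0.0488. In iPS over MEFs, 5 of 9 were lower and 0 higher (1 at an unadjusted p under 0.05), among them Il11 (-4.61 ± 0.0648). Of 6 fibroblast markers, 6 were higher in MEFs and 4 lower in iPS cells than in ES cells, the direction of Il11, and their part in its values was not tested.

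Among 3 other tested receptors, Il11ra1, which binds IL-11, rose in MEFs (2.31 ± 0.0581, limma adjusted p = 3.51e-08), and none was called in iPS cells over ES, where 3 were lower and 0 higher at an unadjusted p under 0.05. Of 7 other Jak kinases and Stat factors, Stat5a (1.40 ± 0.0529) and Stat6 (1.30 ± 0.0494) rose in MEFs. In iPS cells over ES, Stat5b (-1.01 ± 0.0584) was called lower, at a value close to 2-fold. With median centring Stat5b stood at -0.77, and without iPS replicate 1 at -0.97, both short of a call. The scanner software's log ratio (-0.95) and the mean over its probes (-0.56) also fell short. In iPS over MEFs, Jak3 was higher (1.17 ± 0.1), and Stat5b (-1.54 ± 0.0826) and Stat6 (-1.27 ± 0.0699) were lower.

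Of 15 inhibitors and phosphatases, 2 were higher and 3 lower in MEFs, and 1 was higher and 4 lower in iPS cells, each against ES cells. Socs5, a relative of Socs3, stood at 2.21 ± 0.0656 in MEFs and -1.29 ± 0.0656 in iPS cells. Cish (-1.61 ± 0.0473) and Socs4 (-1.58 ± 0.0508) fell in iPS cells over ES, where Pias2 rose 2.14-fold. Pias3, an inhibitor of Stat3, rose in MEFs (1.57 ± 0.0536). The phosphatases Ptpn6 (-2.63 ± 0.0478) and Ptpn2 (-1.41 ± 0.0462) and the inhibitor Socs2 (-1.62 ± 0.0566) fell in MEFs, although Ptpn2 was at -0.86 with median centring and not called. Mean values over all probes of a gene ended the calls of Pias3 (0.98) and Ptpn2 (-0.74) in MEFs and of Pias2 in iPS cells (0.98). In iPS over MEFs, 5 were higher, led by Ptpn6 (2.90 ± 0.0676), and 5 lower, led by Socs5 (-3.49 ± 0.0928).

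Of 9 adaptors and kinases of the Erk branch, the docking protein gene Gab1 fell in MEFs (-2.70 ± 0.0466), Hras1 rose (1.19 ± 0.0465), and none was called in iPS cells over ES by limma, where 6 were higher and 2 lower at an unadjusted p under 0.05. Gab1 was higher in iPS cells than in MEFs (3.25 ± 0.0659), and Mapk3 was lower (-1.43 ± 0.0755).

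Of 20 genes reported as LIF or Stat3 targets in ES cells, 6 were higher and 7 lower in iPS cells than in ES cells. The higher genes included Tbx3 (3.71 ± 0.0534, SE, n = 2) and Klf4 (1.94 ± 0.0468), which encode factors of the pluripotent state. The labels do not name the transduced factors, and whether transduced copies add to any signal of the iPS clone was not tested. Pramel7, called higher at a fitted 4.48, was above background on 1 of 4 ES arrays and both iPS arrays, so its ES level, and with it the size of the ratio, was poorly measured. It passed the filter through iPS cells alone, so its calls follow in part from the filter. The lower genes were led by Egr1 (-3.69 ± 0.0499), Cebpb (-2.61 ± 0.0529) and Myc (-2.22 ± 0.0492), which encode transcription factors that many growth signals induce. Fos, an AP-1 subunit like Junb, stood at -1.20 in iPS cells and was called lower. In MEFs 3 of the 20 were higher, Ier3 (2.22 ± 0.049), Mras (2.21 ± 0.0487) and Cebpd (2.13 ± 0.0494), and 6 were lower, led by Gbx2 (-2.50 ± 0.0487), Klf5 (-2.36 ± 0.0653) and Pim1 (-1.63 ± 0.067). In iPS over MEFs 10 were higher and 7 lower. Pramel7 was a fitted 22.6-fold higher there, with a bound of 27-fold from channel signals, and was not above background in MEFs.

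**Figure D4:**
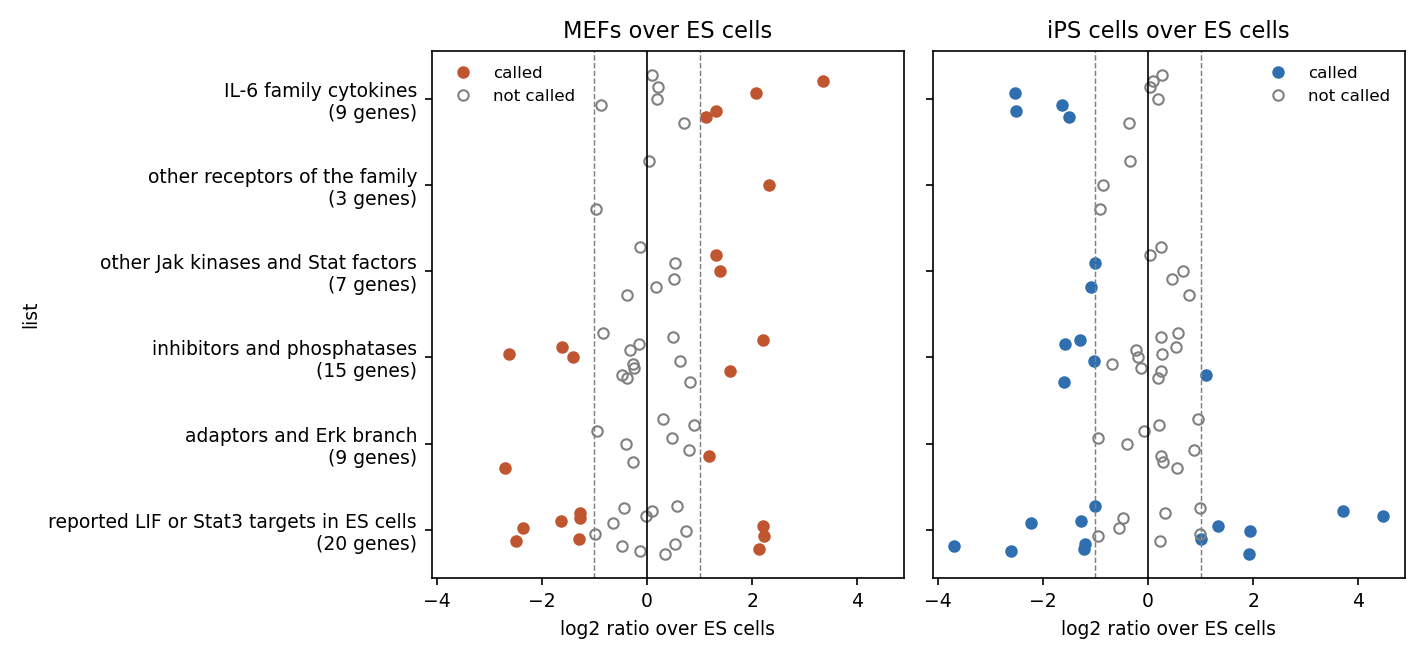
Log2 ratio over ES cells (horizontal axis) of the 63 tested genes of the 6 lists (vertical axis, a point per gene by its brightest probe), for MEFs on the left and iPS cells on the right; filled points were called, open points were not, and dashed lines mark 2-fold. Called cytokine genes lie on the right in MEFs (4 of 9) and on the left in iPS cells (4 of 9), and called targets lie on both sides. Il6, among the 4 in MEFs, passed the filter through MEFs alone.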

How the data were processed

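Per the file headers, the authors scanned the arrays at 5 micron and read spots with Agilent Feature Extraction 10.5.1.1; the deposited mean and local background intensities are not normalised. A log10 ratio (red over green) that the software had deposited in the same files served only as an alternative; the series' table held identical values (largest difference 0). Coordinates are those of the array files (mm8).

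Here, intensities were background-corrected with normexp (offset 50, fitted over unmarked spots) and loess-normalised within arrays (span 0.3), and spots of a probe were averaged as log2 ratios, from the deposited intensities. Control spots and spots marked as feature or background outliers were left out, as were probes well above background in no RNA on all its arrays. limma 3.58.1 (R 4.3.3) fitted 1 coefficient per group. On simulated data with 200 of 24874 probes changed by 3 on the log2 scale, the iPS over ES and iPS over MEF steps each recovered 100%, and 95% and 92% at 1.5; no change was simulated in MEFs over ES, where 0 probes were called. Signals of a channel were taken after further Aquantile normalisation, as were bounds.

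A gene is represented by its brightest probe. Of the pathway lists, up to 3 called genes with the largest rise and up to 3 with the largest fall were named per list and comparison. Fos was named after its values were seen. Some genes that this rule names are not reported here. The members, lists and markers were chosen with earlier results of these data known. Alternatives covered background, normalisation, filters, marked spots, probes per gene, the replicate number as a block, and each array left out.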

Additional observations from a re-analysis of the deposited data

Results flagged for a closer look

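Osmr had opposite called effects in the 2 kinds of cells: against ES cells, MEFs stood at 4.78 and iPS cells at -2.01 on the log2 scale. The difference of the 2 effects in the same limma fit was -6.79 ± 0.121 (SE, n = 2 arrays a group, adjusted p = 1.09e-08), with both MEF arrays above ES cells and both iPS arrays below. Opposite calls already imply such a difference, so its p-value is no further support. The iPS signal was not well above background on either array, so the size of the iPS value was poorly measured. It was -5.73 over ES with the scanner software's log ratio. With the background model fitted over all spots the difference was -4.84 (limma adjusted p = 0.128) and not called. There the MEF value over ES moved to 2.84, while the iPS value was -1.99. The difference was -4.17 with the mean over both probes and -10.83 with the scanner software's log ratio. Over the 4 ES channels, no member's brightest probe had an array that stood apart by Dixon's criterion.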

How the results depend on the processing

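The 24 ratios of the members' brightest probes were recomputed under 15 settings, where they could be fitted. Of 357 values, 338 kept their direction and side of the threshold, 13 lost the call, 3 gained it and 3 turned. Many of these could not move. Aquantile normalisation, the filters, 1 probe per gene and the replicate blocks leave the ratios unchanged, and leaving out an array leaves the other group's ratios over ES unchanged. Of 24 values, 10 lost the call with the background fitted over all spots, and 3 with the mean over probes. The turned values were all in MEFs over ES with median centring: Socs3 (0.40), Jak2 (0.18) and Junb (0.22); that setting moved the median of all tested probes to 0.164 in MEFs and 0.139 in iPS cells over ES, and split all calls into 4716 higher of 6738 and 3225 higher of 5247, against 3174 of 6269 and 1989 of 4652. It made Lifr in MEFs (1.09) and Socs3 in iPS cells (1.26) pass the threshold.

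With the background model fitted over all spots, called member probes fell to 0, 3 and 3 (MEFs over ES, iPS over ES, iPS over MEFs; 6, 5 and 9 otherwise), listed genes to 0 in MEFs over ES and 19 in iPS over MEFs, and all probes to 0 and 2637 in the same comparisons. In MEFs over ES, Il6st (1.25), Stat3 (2.10), Jak1 (1.29) and Osmr (2.84) then lost their calls, with adjusted p-values up to 0.356; Lifr in iPS cells (1.24) had an adjusted p of 0.0536. The cause was not tested. The scanner software's log ratio called 10354, 8405 and 12486 probes, put Lifr at 1.67 in MEFs, and split member calls into 3 higher and 4 lower in iPS over ES and 2 higher and 9 lower in iPS over MEFs. Averaging probes of a gene, which leaves 8 member values, called 2 in iPS over ES and 5 in iPS over MEFs.

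Leaving out each array in turn left 6, 5 and 9 member probes called, 23 to 24, 23 to 24 and 38 to 39 listed genes, and 6229 to 6410, 4609 to 4723 and 8209 to 8298 probes; a lone array was assumed to vary like the other group. The replicate numbers share only a number: the replicate differences of MEFs and iPS cells correlated at -0.11 over probes. With the number as a block, 6269, 4652 and 8234 probes were called, and no member call changed; the crossed pairing, added after seeing the data, gave the same counts. Of 56 named values of listed genes, 25 kept their call with the background fitted over all spots, and none turned under any of the 15 settings. Probes near background limit Osmr in iPS cells and Lifr in all RNAs.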
